A study of Brachypodium distachyon with 45 samples.

Results

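Leaf RNA of the grass Brachypodium distachyon was examined for its 100 most abundant transcripts. These are the 100 of 33852 loci in the table that were chosen by their mean FPKM over the T0 controls of ABR4, ABR8 and KOZ1, taking the highest. FPKM counts sequenced fragments relative to the length of the transcript and to the fragments mapped in all, and so is a level that can be set side by side between genes. These 3 genotypes are inbred lines that were described as intermediate (ABR4), tolerant (ABR8) and susceptible (KOZ1) under drought. All plants were grown in soil at 21 °C with a photoperiod of 16 h, and water was withheld from the drought plants from 32 days after germination. For each genotype, leaves were collected from watered plants at T0, on day 0, and from watered and droughted plants at T1, on day 4, and at T2, on day 8. Each of the 15 groups held 3 libraries from separate plants, 45 in all. The table holds 1 pooled value for each locus and group, so that no SD over plants can be given, and the deposited 95% limits stand for its error. Groups follow the sample titles. The treatment field of the records gives the opposite treatment for 15 samples. These are the 12 ABR8 samples of T1 and T2 and the 3 KOZ1 samples of T0. If that field were right, the ABR8 drought changes would turn their direction. The ABR8 controls of T1 and T2 would then be droughted leaves. For the KOZ1 T0 group the field conflicts with the design, in which T0 leaves were taken at the start from controls only.

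In a green leaf the most abundant nuclear transcripts usually encode proteins of photosynthesis, such as the proteins that bind chlorophyll, subunits of both photosystems and the small subunit of the enzyme that fixes carbon dioxide. Such proteins are made in the cytosol and carried into the chloroplast. Leaves under severe drought close their stomata and, as they age or die, commonly lower many of these transcripts. The gene table used here gives symbols and positions but no product names, so that no role is given for the single loci, with 1 exception, and lists of leaf, phloem, epidermis or senescence markers could not be applied. The tissue named by the labels was therefore not tested against markers. A leaf holds several cell types, and in such bulk RNA fewer cells of a type and less RNA per cell cannot be told apart.

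Of the 100 loci, 79 carry 1 BRADI identifier, 18 carry several, whose transcripts the table does not split, and 3 carry none. A RefSeq gene was matched one to one to 63 of them, and 4 overlap no RefSeq gene. The 100 loci lie on all 5 chromosomes, with 37 on chromosome 1, 16 on chromosome 2, 20 each on chromosomes 3 and 4, and 7 on chromosome 5. The region of 21 of them is shared with a further locus in the table. The table holds 0 loci of the plastid genome, so transcripts made inside the chloroplast are not among them. The median span of the 100 regions on the v3.0 assembly was 2807 bases, against 3328 bases for all loci. The median standard error of the loci was between 0.270 and 0.305 of the FPKM value in the 15 groups, against 0.308 to 0.338 for all loci above 0, so the 100 were measured somewhat more precisely than a typical locus.

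The T0 means, which chose the loci, ran from 15230 FPKM for the first to 602 for the last, a 25.3-fold range. At the edge of the list Bradi1g52020 had a mean of 613 FPKM and the locus of Bradi5g24020 and Bradi5g24027 had 602, while Bradi1g03340 and XLOC_033811, just outside, had 584 and 573. The most abundant was Bradi2g16290 (LOC100841831, chr2:14360127-14361220), followed by Bradi4g37210 (LOC100828241, chr4:42331524-42333118) and Bradi3g26391 (LOC100845819, chr3:26814454-26816090). The next were Bradi2g44856 (chr2:45037175-45044036), Bradi4g08800 (LOC100829841, chr4:7953205-7954426) and the locus of Bradi1g52450, Bradi1g52460 and Bradi1g52470 (chr1:50881145-50892300). Bradi1g15290 (LOC100842929, chr1:12229983-12231589), Bradi1g24760 (LOC100836842, chr1:20023234-20024470), Bradi4g08500 (LOC100840557, chr4:7558473-7563999) and Bradi2g62315 (LOC100839285, chr2:58810115-58810845) completed the first 10. The highest value of any of the 100 in any group was 17844 FPKM, for Bradi2g16290 in the ABR4 T1 control, and 0 of the 100 were listed at 0 in any group.

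In 14 of the 15 groups these 100 loci held between 40.7% and 48.4% of the FPKM sum of all loci, and in KOZ1 T2 drought they held 23.2%. In ABR4 the share was 47.4% at T0, 47.8% with and 48.4% without water at T1, and 47.5% with and 45.4% without water at T2. In ABR8 it was 42.3%, 43.0%, 44.4%, 40.7% and 44.8% in the same order, so that all 5 ABR8 groups were below all 5 ABR4 groups. The T1 drought groups of ABR4 and ABR8 are among these, and a limit of both is given with the T1 changes below. In KOZ1 the share was 45.9%, 44.9%, 47.6% and 48.0% in the groups other than T2 drought. The first 10 loci alone held between 14.1% and 17.7% of the sum in the other 14 groups and 3.57% in KOZ1 T2 drought. Of the 100 loci, between 86 and 96 were also among the 100 highest of each of the other groups, against 66 in KOZ1 T2 drought. The T0 groups, which chose the list, had 93 to 96 of them. The T1 and T2 groups other than KOZ1 T2 drought had 86 to 92. Taking every one of the 100 at its lower or at its upper limit at once, the share ran from 27.2% to 59.6% in the KOZ1 T2 control and from 8.02% to 34.8% in KOZ1 T2 drought. These widest ranges overlap, and a share has no replicate spread in pooled values.

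**Figure D1:**
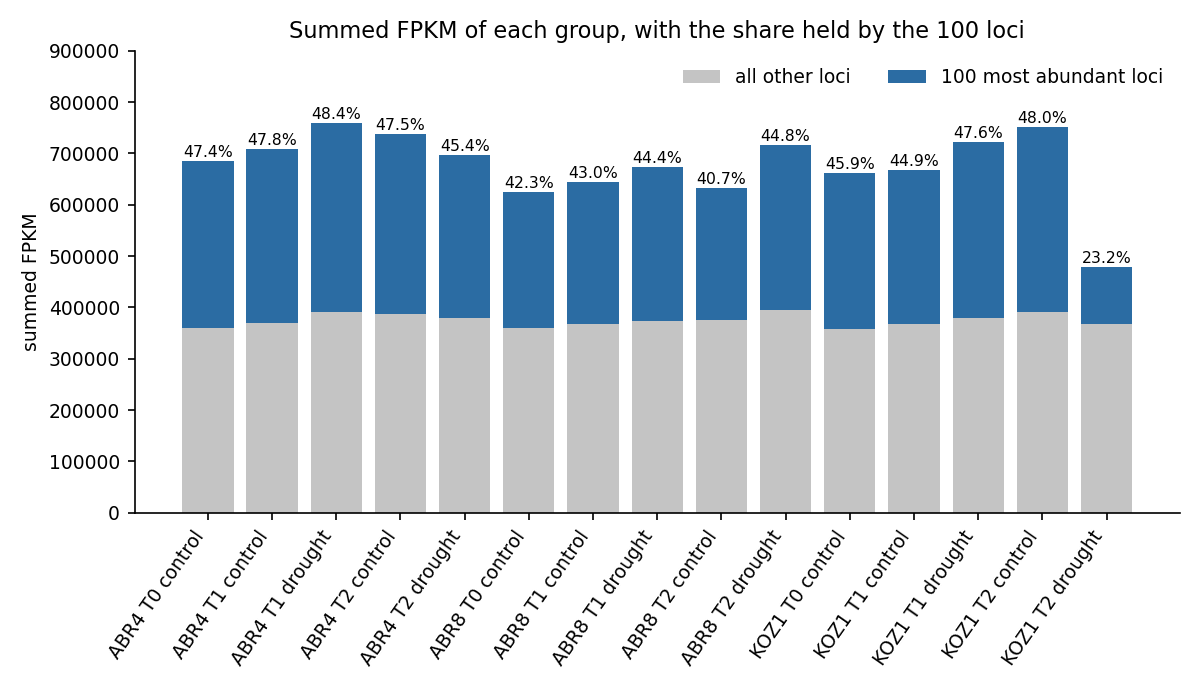
Summed FPKM (y axis) of the 100 most abundant loci (blue) and of all other loci (grey) in each of the 15 groups, with the share of the 100 loci printed above each bar. The grey part lies between 358000 and 395958 FPKM in every group, while the blue part is 111264 FPKM in KOZ1 T2 drought.

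Summed over every locus, KOZ1 at T2 had 750890 FPKM with water and 479128 without, which is 36.2% lower, and the other 13 groups lay between 624700 and 759455. The 100 loci summed to 360233 FPKM in the control and 111264 in drought, a ratio of 0.309. The other 33752 loci summed to 390657 and 367865 FPKM, a ratio of 0.942. Of the net fall of 271762 FPKM, the 100 loci therefore account for 91.6% and all other loci for 8.39%. This split is that of FPKM as deposited and depends on the scaling. Among the 100, 86 were lower and together lost 265597 FPKM, and 14 were higher and together gained 16627 FPKM. Among the other loci the gross changes were larger than the net one, with 12011 loci that together lost 117636 FPKM and 14175 that together gained 94843.

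A small number of very abundant loci made up most of this fall, where a fall of a locus is its difference in FPKM, called or not. The 10 loci with the largest falls account for 41.1% of it, the first 14 for 51.1%, the first 25 for 70.7% and the first 50 for 90.3%. The loci ranked 1 to 10 at T0 account for 40.1%, and 9 of them are among the 10 largest falls. Since a fall is a difference in FPKM, this overlap follows in part from the abundance of these loci. They summed to 126118 of the 360233 FPKM of the 100 loci in the KOZ1 T2 control. The loci of rank 11 to 25 account for 30.2%, those of rank 26 to 50 for 16.1% and those of rank 51 to 100 for 5.15%. The median log2 change was also lower for the more abundant loci, at -3.29 at rank 1 to 10, -2.52 at rank 11 to 25, -2.25 at rank 26 to 50 and -1.43 at rank 51 to 100. By size of change, the 17 loci that were lower by 8-fold or more account for 30.1% of the fall, the 39 lower by 4 to 8-fold for 53.0%, the 18 lower by 2 to 4-fold for 12.3% and the 12 lower by under 2-fold for 2.33%.

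**Figure D2:**
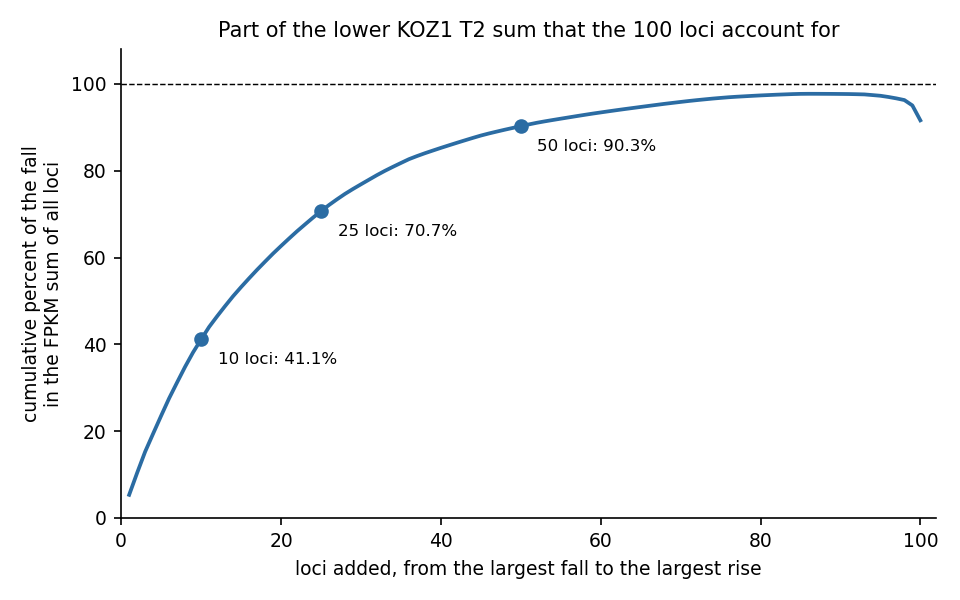
Cumulative percent of the fall in the FPKM sum from the KOZ1 T2 control to KOZ1 T2 drought (y axis) as the 100 loci are added from the largest fall to the largest rise (x axis). The line passes 41.1% at 10 loci and 90.3% at 50 loci and is highest at 86 loci, at 97.7%. It then comes down to 91.6%, since the last 14 loci were higher in drought. The remainder up to the dashed line at 100% is the 8.39% that all other loci account for.

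The single largest part came from Bradi2g16290, with 5.3% of the fall. In KOZ1 it stood at 15766 FPKM at T0, 14010.4 in watered and 16279.6 in droughted leaves at T1, and 17710.3 in watered and 3305 in droughted leaves at T2. The other 4 KOZ1 groups were between 14010 and 17710 FPKM, and the T2 drought value (95% limits 1151 to 5459.5) lay below the limits of the T2 control (9692 to 25729). It fell 5.36-fold (log2 change -2.42, SE 0.58). Bradi2g44856 contributed 5.07% of the fall, with 11846 FPKM at T0, 12993 in watered and 14971 in droughted leaves at T1, and 14839 in watered and 1048 in droughted leaves at T2. It fell 14.2-fold in T2 drought (log2 change -3.82, SE 0.92), and its level in the other 14 groups was between 9756 and 16707 FPKM. Bradi4g37210 contributed 4.87%, with 15560.0 FPKM in the T2 control and 2328 in T2 drought, against 15102, 12992 and 15171 at T0 and T1. It fell 6.68-fold (log2 change -2.74, SE 0.63).

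Further large parts came from loci with 9666 to 12447 FPKM in the control. Bradi1g24760 went from 12447 to 1132 FPKM and accounts for 4.16% of the fall (log2 change -3.46, SE 1.03). The locus of Bradi1g52450, Bradi1g52460 and Bradi1g52470 went from 12249 to 1068 FPKM and accounts for 4.11% (log2 change -3.52, SE 1.07). Both were called lower, although the lower limit of each in drought was 0. Bradi4g08800 went from 11576 to 639 FPKM, an 18.1-fold fall that accounts for 4.02% (log2 change -4.18, SE 0.64). Bradi4g08500 went from 9666 to 621 FPKM, a 15.6-fold fall that accounts for 3.33% (log2 change -3.96, SE 0.75). These loci fell furthest in proportion among the first 10, and in the other 14 groups they were between 9502 and 14985 and between 7103 and 11778 FPKM. Bradi3g26391 went from 11064 to 1275 FPKM (3.6% of the fall) and passed the threshold by a small margin (log2 change -3.12, SE 1.07), which it missed with FPKM scaled to the same sum or to the same sum of the other loci.

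Some of the largest falls did not pass the test. Bradi1g15290 stood at 11727 FPKM in the control and 1753 in drought, 3.67% of the fall, and was not called (log2 change -2.74, SE 1.57). Its upper limit in drought, 5382 FPKM, is the widest relative to its value among the first 10. Bradi4g24367 (LOC100836194, chr4:29413725-29416830), ranked 19 at T0, had its highest level of all groups in the KOZ1 T2 control, 11631 FPKM, and stood at 3591 in drought (2.96% of the fall, log2 change -1.70, SE 0.62). With FPKM scaled to a common median it was called, at a log2 change of -1.81. Bradi2g62315, the only one of the first 10 outside the 10 largest falls, stood at 9281 FPKM in the control with limits of 0 to 19466 and at 3936 in drought (log2 change -1.24, SE 0.91).

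Over the whole list, 50 of the 100 loci were called lower in KOZ1 T2 drought and 1 was called higher, where 4.57% and 3.77% of the 26286 loci tested were called in these directions. To be called, a locus had to change at least 2-fold with an adjusted p no higher than 0.05, by a z-test on the logarithm of FPKM with errors from the authors' limits and Benjamini-Hochberg adjustment over all loci. Without the adjustment, 67 were lower and 2 higher, where 6.94% and 6.17% of all loci were. With the difference in FPKM tested in place of the log ratio, 25 were called lower and 0 higher, where 3.78% and 2.96% of all loci were. The 50 loci account for 66.5% of the fall in the sum, and their log2 changes were between -1.37 and -5.89. Of them, 27 ranked 1 to 50 at T0 and 23 ranked 51 to 100. A further 24 loci were lower by at least 2-fold but were not called, with log2 changes of -1.01 to -2.95. In all, 74 of the 100 were lower by at least 2-fold, against 17.8% of the loci tested. The median log2 change of the 100 was -2.11, and that of all loci above 0 in both groups was 0.06. In 77 of the 100 the KOZ1 T2 drought value was below those of the other 14 groups, which held for 15.1% of the 29846 loci above 0 in any group. The T0 groups among these 14 chose the loci, and without them the KOZ1 T2 drought value was the lowest for 78 of the 100 and for 17.5% of all loci.

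FPKM values are relative to the fragments of a library, so the counts were repeated with other scalings. With every group scaled to an equal FPKM total, which raised the drought value of every locus by 0.65 on the log2 scale against the control, 34 of the 100 loci were called lower and 4 higher, against 2.07% and 13.4% of all loci. Of the 86 loci below the control, 78 remained below it, and the median log2 change of the 100 was -1.46 while that of all loci was 0.71. With FPKM scaled to a common median, a shift of -0.12, 55 of the 100 were called lower and 1 higher, against 5.33% and 3.19% of all loci. With FPKM scaled to the same sum of the other loci, 49 were called lower and 1 higher, against 4.14% and 4.47% of all loci. A scaling moves every locus by the same amount and so cannot change the distance between the median of the 100 and that of all loci. The number of the 100 above the control was 14, 22, 9 and 14 as deposited and under the scalings in this order.

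**Figure D3:**
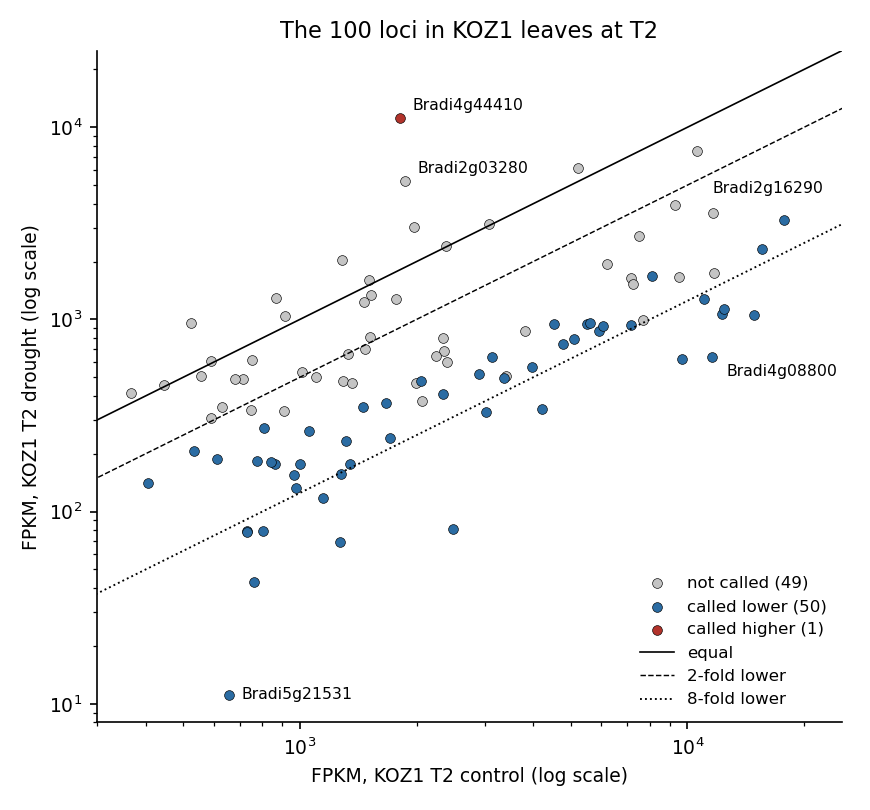
FPKM of the 100 loci in KOZ1 T2 drought (y axis, log scale) against the KOZ1 T2 control (x axis, log scale), with the 50 loci called lower in blue, the 1 called higher in red and the 49 not called in grey, and lines for equal values, 2-fold lower and 8-fold lower. On or below the 2-fold line lie 74 loci and on or below the 8-fold line 17, while Bradi4g44410 rises to 11152 FPKM.

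The 3 largest fold changes among the 100 were outside the first 10. They were those of Bradi5g21531, the locus of Bradi4g07380 and Bradi4g07390, and Bradi4g30060. Bradi5g21531 (LOC100835599, chr5:24285574-24286456), of rank 91, stood at 582 FPKM at T0, 636 in watered and 728 in droughted leaves at T1, and 658 in watered and 11.1 in droughted leaves at T2. It fell 59.2-fold, from the middle of its range to the lowest value of any of the 100 in any group (log2 change -5.89, SE 0.56). In ABR4 it was also the locus with the lowest log2 change at T2, from 1069.9 to 534 FPKM, which was not called. The locus of Bradi4g07380 and Bradi4g07390 (chr4:6276453-6292135) stood at 3799.7 FPKM at T0, 3504 in watered and 3423 in droughted leaves at T1, and 2489.8 in watered and 80.7 in droughted leaves at T2. It fell 30.8-fold (log2 change -4.95, SE 0.77). Bradi1g12130 (LOC100822184, chr1:9015441-9016459) stood at 1215 FPKM at T0, 1062 in watered and 1122 in droughted leaves at T1, and 760.3 in watered and 43 in droughted leaves at T2, a 17.7-fold fall (log2 change -4.14, SE 0.59). It was close to the 18.1-fold fall of Bradi4g08800, and Bradi4g30060, of rank 54, fell 18.2-fold, from 1267 to 69.7 FPKM. The ranges of Bradi5g21531, of the locus of Bradi4g07380 and Bradi4g07390, and of Bradi1g12130 over the 15 groups, 96.3-fold, 47.1-fold and 39.3-fold, are the widest of the 100. Without KOZ1 T2 drought they were 2.0-fold, 3.44-fold and 4.82-fold.

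The only locus called higher was Bradi4g44410 (LOC100828244, chr4:47767234-47768040), at 1384 FPKM at T0, 2430.0 in watered and 1215 in droughted leaves at T1, and 1812 in watered and 11152 in droughted leaves at T2. It was the highest of all loci in KOZ1 T2 drought, 6.15-fold above its control (log2 change 2.62, SE 0.83), but its limits in drought ran from 686 to 21618 FPKM and overlapped those of the control, 659 to 2966. It was not called when limits had to be apart, when the difference in FPKM was tested, or when p was adjusted over all 12 comparisons together. In ABR4 it was 2543 FPKM in the T2 control and 3661 in T2 drought, and in ABR8 1240.1 and 1377. Bradi2g03280 (LOC100821201, chr2:2425258-2426265) stood at 1862 FPKM in the KOZ1 T2 control and 5232 in drought, which did not pass the test (log2 change 1.49, SE 0.63), and was called with FPKM scaled to the same sum. Its level in the other 14 groups was between 630.5 and 1862 FPKM.

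The next gains were smaller and were not called. Bradi4g00940 (chr4:491262-498758) went from 1973 to 3021 FPKM (log2 change 0.61, SE 0.52). Bradi2g06220 (chr2:4669956-4671151), which overlaps no RefSeq gene, went from 5229 to 6118 FPKM, within its limits in the control (log2 change 0.23, SE 0.77). Bradi1g12787 (LOC100842305, chr1:9676628-9678013) went from 1284 to 2036 FPKM (log2 change 0.67, SE 0.43). The level of this last locus in watered KOZ1 leaves was 3615 FPKM at T0 and 2183 at T1, so its T2 drought value was below that of the T0 control. The 3 loci with the narrowest range over the 15 groups were also about level. Bradi3g10120 was 2376 FPKM in the control and 2401 in drought, Bradi1g49997 914 and 1044, and Bradi3g01990 1507 and 1609. Their highest values were 1.45, 1.57 and 1.60 times their lowest, KOZ1 T2 drought included.

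The 3 loci without a BRADI identifier span 113 to 157 bases and overlap no RefSeq gene, and they are described here after their values were seen. XLOC_009690 (chr1:1123008-1123120) was 10586 FPKM in the KOZ1 T2 control and 7503 in drought, where it ranked 3 among all loci. XLOC_024731 was 1327 and 661 FPKM, and XLOC_030518 was 1015 and 531. None of the 3 was called, with log2 changes of -0.50, -1.01 and -0.94. The locus of Bradi4g44870 and Bradi4g44880 is the only one for which the study annotates an identifier: Bradi4g44870 is listed as a ferroxidase, an enzyme that oxidizes iron, with iron binding. The locus, which the table does not split, stood at 1167 FPKM at T0, 456 in watered and 1045 in droughted leaves at T1, and 588 in watered and 306 in droughted leaves at T2. Its T2 change was not called (log2 change -0.94, SE 0.47). The only members whose regions lie within 20000 bases of each other on the same chromosome are Bradi4g40780 and Bradi4g40800, with 1148 bases between them, and they were 4.01-fold and 4.16-fold lower in KOZ1 T2 drought, of which the second was called.

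Lower values in KOZ1 T2 drought did not end at rank 100. In the 100 loci of rank 101 to 200 at T0 the median log2 change in KOZ1 T2 drought was -1.15, with 43% called lower and a ratio of the sums of 0.746. At rank 201 to 500 the median was -0.75, with 36.3% called lower, and at rank 501 to 1000 it was -0.34, with 28% called lower. At rank 1001 to 5000 it was -0.06, with 12.5% called lower, and the ratio of the sums was 0.976. With lower abundance at T0 the median thus came closer to 0 and the share of loci called lower came down, at each step. The ratio of the sums did not follow this order, at 0.666 at rank 201 to 500 and 0.893 at rank 501 to 1000. The 34 loci that replaced 34 of the list among the 100 highest of KOZ1 T2 drought included Bradi4g25750, from 268 to 8108 FPKM with drought limits of 0 to 16420, Bradi1g37410, from 0.757 to 2563, and Bradi4g24650, from 528 to 2123, named here after their values were seen. Of the 20 highest loci of that group 17 were from the list, with Bradi4g44410, XLOC_009690, Bradi2g06220 and Bradi2g03280 the highest of them, and Bradi2g16290 ranked 8.

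None of the other 5 drought comparisons called any of the 100 loci. In ABR4 at T2, 0 were called lower and 0 higher by the z-test, where 0.031% and 0.0388% of all loci were called, and at an unadjusted p of at most 0.05 and 2-fold 1 was lower and 0 higher, where 0.551% and 0.4% of all loci were. The median log2 change of the 100 was -0.13, with 71 below the control and 45.5% of all loci below it, and the sum of the 100 went from 350570 to 316165 FPKM. All of the first 10 loci were below their control, with log2 changes between -0.52 and -0.15. In ABR8 at T2, 0 were called in either direction, where 0.0229% and 0.0153% of all loci were called lower and higher, and without the adjustment 0 were lower and 1 higher (0.279% and 0.37% of all loci). The median was 0.28, with 79 above the control, where 50.6% of all loci were below it, and the sum went from 256995 to 320764 FPKM. The first 10 loci summed to 88904 and 115158 FPKM, and 9 of them were above their control. The largest change was that of Bradi1g12130, from 459 to 1689 FPKM, which missed the threshold (log2 change 1.88, SE 0.47) and was called when p was adjusted over all comparisons together. At T2 the medians of ABR4 and ABR8 therefore had opposite signs, and 0 of the 100 loci were called in either genotype.

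At T1 between 76 and 84 of the 100 loci were above their controls, and 0 were called in any genotype. Of all loci tested, between 48.1% and 49.9% were below their controls at T1. In KOZ1, 0 were called, where 0.303% of all loci were called lower and 0.155% higher, and without the adjustment 1 was lower and 0 higher (1.1% and 0.997% of all loci). The median log2 change was 0.20, with 84 above the control, and the sum went from 300117 to 344129 FPKM. In ABR4, 0 were called (background 0.0339% lower and 0.2% higher), and 0 without the adjustment (0.331% and 1.33%), with a median of 0.17 and 76 above. In ABR8, 0 were called (background 0% lower and 0.037% higher), and 0 without the adjustment (0.0407% and 0.891%), with a median of 0.09 and 80 above. The median standard error of a log2 change was between 0.58 and 0.59 in these comparisons, which is the error of a single locus and not of a median over the list. Beside the T1 values of ABR4 and ABR8 stands a feature of both drought groups. There were 75 loci at 0 in all other ABR4 groups but at 5 FPKM or more in ABR8. All 75 were above 0 in ABR4 T1 drought, at a median of 35.9% of their ABR8 level. The reverse held for all 27 such loci in ABR8 T1 drought, at a median of 36.0% of their ABR4 level. Their part in the T1 values of the 100 loci was not tested.

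**Figure D4:**
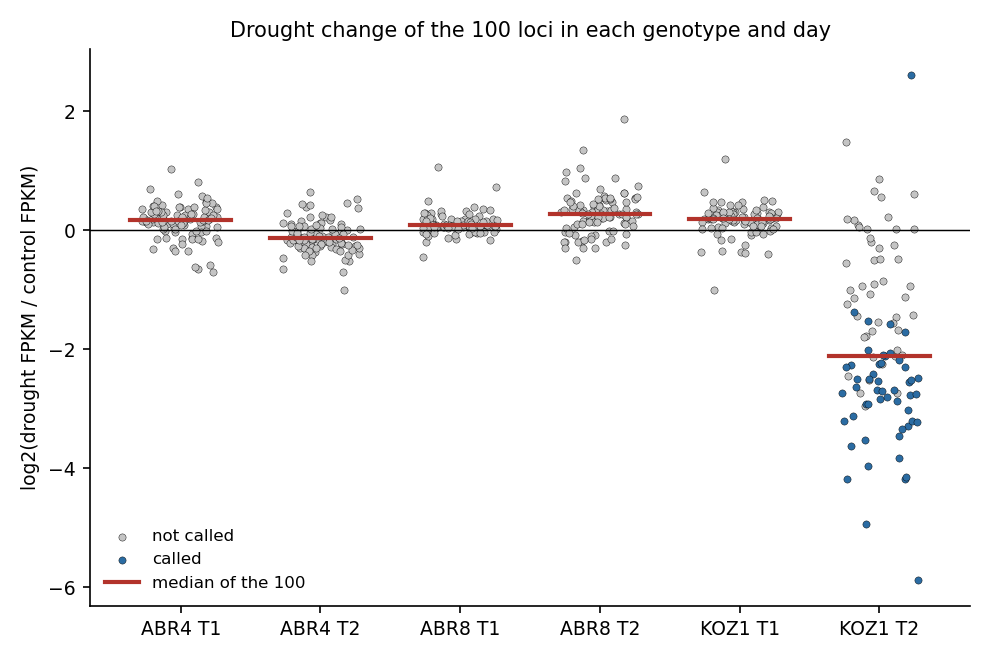
Log2 ratio of drought to control FPKM (y axis) for each of the 100 loci (points, blue where called) in the 6 drought comparisons (x axis), with the median of the 100 as a red bar. The medians lie between -0.13 and 0.28 in 5 comparisons and at -2.11 in KOZ1 T2, the only comparison with called loci.

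Whether the drought change at T2 differed between genotypes was tested on the difference of the log changes. Against ABR8 at T2, 32 of the 100 loci had a lower change in KOZ1 and 0 a higher one, where 3.27% and 1.68% of the 22123 loci tested did, and the median difference was -2.44 on the log2 scale. Against ABR4 at T2, 13 had a lower change and 0 a higher one, where 1.37% and 0.867% did, with a median of -2.01. Against KOZ1 at T1, 28 had a lower change and 1 a higher one, where 2.93% and 1.85% did, with a median of -2.34. These comparisons share the KOZ1 T2 groups and are not independent of each other. Among the first 10 loci, Bradi2g44856, Bradi4g08800 and Bradi4g08500 passed in all 3 of these tests. For Bradi4g08500 the log2 change was -3.96 in KOZ1, -0.39 in ABR4 and 0.37 in ABR8 at T2, and 0.16 in KOZ1 at T1. Bradi4g08800 had -4.18, -0.50, 0.39 and 0.14 in the same order. Bradi2g16290, Bradi4g37210 and Bradi1g24760 passed against ABR8 and against KOZ1 at T1 but not against ABR4 (for Bradi2g16290, difference of the log2 changes -2.20, SE 0.85). Bradi4g44410 passed against KOZ1 at T1 only (difference of the log2 changes 3.62, SE 0.97), since it was below its control there, 2430.0 against 1215 FPKM.

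Among watered leaves few of the 100 loci were called, although most were lower in ABR8. In the T2 controls the 100 loci summed to 256995 FPKM in ABR8, against 350570 in ABR4 and 360233 in KOZ1. Were the treatment field of the records right, this ABR8 group would be droughted leaves. The watered ABR8 leaves of T2 would then be the group that summed to 320764 FPKM. The ABR8 comparisons of this paragraph rest on the sample titles. Against ABR4, 83 of the 100 were below in ABR8, as were 46.9% of all loci, with a median log2 change of -0.41 for the 100 and 0.03 for all loci. Against ABR8, 89 were above in KOZ1, where 51.5% of all loci were below, with a median of 0.41 for the 100 and -0.01 for all loci. All of the first 10 loci were lower in ABR8 than in both others. Between T1 and T2 controls, 0 were called in ABR4 (background 0.0194% lower and 0.0194% higher), where 1 was lower and 0 higher without the adjustment (0.376% and 0.291%). In KOZ1, 0 were called (0.054% and 0.0385%), and 0 without the adjustment (0.721% and 0.312%). In ABR8, 1 was called lower and 0 higher, where 0.178% and 0.0946% of all loci were, and 3 and 0 without the adjustment (1.31% and 0.662%). The called locus was Bradi3g01470 (LOC100846426, chr3:939007-941921), with 262 FPKM at T1 and 90.0 at T2 (log2 change -1.54, SE 0.39). It was also the only locus called between genotypes at T2. The ABR8 value of 90.0 was below 791 in ABR4 (log2 change -3.14, SE 0.46) and below 366 in KOZ1 (log2 change of KOZ1 against ABR8 2.02). The counts were thus 1 lower and 0 higher for ABR8 against ABR4 (background 1.15% and 1.34%), 0 and 0 for KOZ1 against ABR4 (0.81% and 0.826%), and 0 lower and 1 higher for KOZ1 against ABR8 (1.51% and 1.46%). These shares are close to or below the background. Without the adjustment they were 4 and 1 (3.53% and 4.07% of all loci), 1 and 2 (2.79% and 2.65%), and 0 and 4 (4.7% and 3.97%). The T0 levels of Bradi3g01470, which helped choose it, were 1858 FPKM for ABR4, 597 for ABR8 and 894 for KOZ1.

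Over the days in watered leaves many loci moved in 1 direction, which is given as a description since T0 chose the loci. The value was lower at each later day for 21 of the 100 in ABR4, 34 in ABR8 and 13 in KOZ1. Of all loci 19.9%, 22.1% and 17.1% did so. The value was higher at each for 36, 23 and 40 of the 100, and for 18.0%, 20.2% and 17.0% of all loci. The 21 in ABR4, the 23 in ABR8 and the 13 in KOZ1 are close to or below these shares. The ABR8 counts rest on the sample titles. In all 3 genotypes, 8 loci had a lower value at each later day and 13 a higher one, where 3.52% and 4.96% of all loci did. Bradi1g12787 is one of the 8, with 5014, 2832 and 1020.1 FPKM in ABR4 and 3652, 1772 and 1022 in ABR8. Bradi4g24367 is one of the 13, with 4651, 6764 and 8575 FPKM in ABR4 and 4443, 6143 and 8303 in ABR8. Leaving out KOZ1 T2 drought, the 5 ABR8 groups were below all groups of the other genotypes for 5 of the 100 loci and for 5.05% of the 29846 loci above 0, and above them for 1 and for 6.41%. Bradi2g16290 is one of the 5, at 9921 to 13261 FPKM in ABR8 against 14326 to 17844 in ABR4 and 14010 to 17710 in KOZ1. Bradi1g15290 showed the same order, at 7362 to 9071 FPKM in ABR8, 10331 to 11794 in ABR4 and 9085 to 11727 in KOZ1. ABR4 was above both others for 3 loci and below for 1, where 2.92% and 2.21% of all loci were, and KOZ1 for 0 and 1, where 4.94% and 3.4% were, so that these counts are close to or below the background. The locus lowest in ABR4 is Bradi2g03280, at 630.5 to 1212 FPKM in ABR4, 1367 to 1809 in ABR8 and 1271 to 1862 in KOZ1. These orders include the T0 values used by the choice and were not tested. They also include the T1 drought groups of ABR4 and ABR8, in which loci at 0 in all other groups of the genotype had values.

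**Figure D5:**
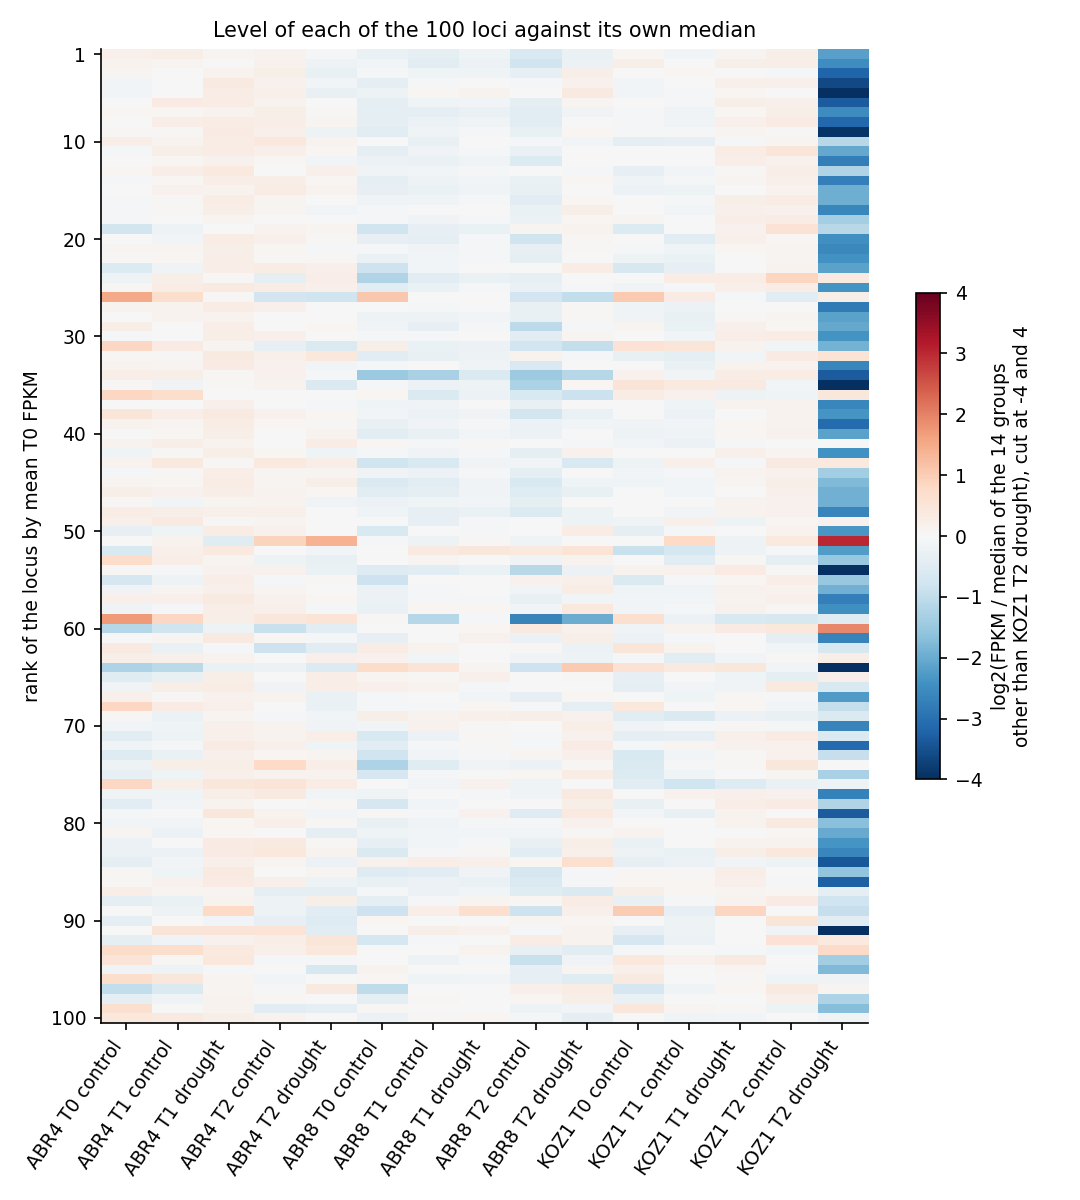
Level of each of the 100 loci (rows, by rank of mean T0 FPKM) in the 15 groups (columns), as the log2 ratio of FPKM to the median of the locus over the 14 groups other than KOZ1 T2 drought, with colours cut at -4 and 4. The KOZ1 T2 drought column is blue for most rows, and 77 of the 100 loci have their lowest value there, while the single dark red cell is Bradi4g44410.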

How the data were processed

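RNA-seq of leaves was measured in 45 libraries in 15 groups of 3. Upstream, trim galore 0.4.1, TopHat 2.1.1 with Bowtie2 2.2.9, and Cufflinks with Cuffdiff 2.2.1 were run by the authors on the Brachypodium v3.0 genome and its v3.1 gene models. The deposited FPKM values are 1 pooled value per locus and group with 95% limits, which the authors' software derived from the 3 libraries. Counts and single libraries were not analysed here, so read depth behind a value is not given, and precision comes from the limits alone.

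The members, lists and tests were chosen with earlier results of these data known. The 100 loci of highest mean T0 FPKM were taken, and shares were computed from summed FPKM. The standard error was the distance from FPKM to the upper limit divided by the normal quantile of a 95% interval. A two-sided z-test compared the logarithms of FPKM between groups, or, for a locus at 0 in 1 of them, the FPKM values themselves, with Benjamini-Hochberg adjustment within each of 12 comparisons and 3 tests of differences between changes. RefSeq genes of the same assembly were matched by position, with an overlap of at least 50%, and table starts were moved to counting from 1. Of the 134 pairs of an identifier and a symbol in the study's lists, 119 had 1 match by position, and 115 of these gave the same symbol.

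Named loci were the 10 highest at T0, the 10 largest falls and 5 largest gains in KOZ1 T2, loci called in other comparisons, the 3 widest and 3 narrowest ranges, and the 4 nearest the limit of the list. Planned roles by product name, marker lists and promoter motifs could not be applied, since the gene table used here holds no product names or sequences. Alternatives were other p adjustments, tests, fold thresholds, a pseudocount of 1, a minimum FPKM of 1, scalings, and other member lists. Lists without the 3 loci that carry no BRADI identifier were added after seeing the data. Python 3.11.15 with numpy 2.4.6, pandas 2.3.3, scipy 1.17.1 and matplotlib 3.10.9 was used.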

Additional observations from a re-analysis of the deposited data

Results flagged for a closer look

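For 6 of the 10 loci with the largest falls, the drought change at T2 differed between KOZ1 and at least 1 other genotype by a z-test on the log changes of both, at an adjusted p of at most 0.05 over all loci tested. The 10 loci were chosen by their fall in KOZ1 T2, which is part of each tested difference. The choice favours a pass, so the count of 6 is a description only. Of all loci tested, 3.27% had a lower change in KOZ1 T2 than in ABR8 T2, and 1.37% a lower change than in ABR4 T2. The log2 drought change of KOZ1 minus that of ABR8 was -2.76 for Bradi2g16290, -4.09 for Bradi2g44856, -3.29 for Bradi4g37210, -3.87 for Bradi1g24760, -4.57 for Bradi4g08800 and -4.33 for Bradi4g08500. The log2 drought change of KOZ1 minus that of ABR4 was -3.54 for Bradi2g44856, -3.68 for Bradi4g08800 and -3.57 for Bradi4g08500. All 9 values rest on the same KOZ1 T2 groups, and if the treatment field of the ABR8 records were right, the ABR8 changes would have the opposite sign.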

How the results depend on the processing

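Shares cannot change with a scaling, a test or a threshold and were repeated with other lists of loci, under which each stayed within the range given by the limits of the 100 loci. The part of the lower KOZ1 T2 sum held by the 100 loci was between 86.3% and 105% with other lists and with the KOZ1 T0 or T1 control as the base, where a value over 100% means that the other loci summed higher in drought. This range does not cover other scalings, on which the part depends. With every group scaled to an equal sum there is no lower sum to divide. With FPKM scaled to the same sum of the other loci, the 100 loci hold all of the fall by construction. The part with a common median is not given. With the unadjusted p, KOZ1 T2 drought called 2 loci higher, 1 locus was called lower in ABR4 T2 drought, KOZ1 T1 drought, the ABR4 T2 control against T1 and KOZ1 against ABR4, 1 higher in ABR8 T2 drought and in ABR8 against ABR4, 3 lower in the ABR8 T2 control against T1, 4 lower in ABR8 against ABR4, 2 higher in KOZ1 against ABR4 and 4 higher in KOZ1 against ABR8, and the changes of KOZ1 T2 differed for 49 loci against ABR4, 66 against ABR8 and 62 against KOZ1 T1. With p adjusted over all comparisons together, KOZ1 T2 drought called 0 higher and ABR8 T2 drought 1 higher. With 95% limits that do not overlap, these were 0 and 1, and 2 loci were lower in the ABR8 T2 control against T1. With the z-test on the difference, KOZ1 T2 drought called 25 lower and 0 higher, and the ABR8 T2 control against T1 called 0, as it did with at least 4-fold. With FPKM scaled to the same sum, KOZ1 T2 drought called 4 higher and ABR8 against ABR4 called 1 higher, and the changes differed for 7 loci against ABR4 and 15 against KOZ1 T1. No shares over all loci are given beside the counts of differing changes with the unadjusted p and with this scaling. Those counts therefore show only how they depend on the setting.

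With the 50 loci of highest T0 FPKM in place of 100, KOZ1 T2 drought called 27 lower and 0 higher, 0 were called in the ABR8 T2 control against T1, in ABR8 against ABR4 and in KOZ1 against ABR8, and the changes differed for 5, 14 and 12 loci against ABR4, ABR8 and KOZ1 T1. With 200 loci these were 93 lower and 3 higher in KOZ1 T2 drought, 1 higher in ABR4 T2 drought and in ABR8 T1 drought, 4 lower in ABR8 against ABR4 and 1 lower in KOZ1 against ABR4, and 31, 66 and 57 loci. These counts differ since the lists differ in length. The shares over all loci are those given above, since the tests are the same. With members chosen on the median of the T0 controls, 1 was called higher in ABR4 T2 drought and in ABR8 T1 drought, and 2 lower in ABR8 against ABR4. The other 466 counts and shares were within 1.5 times the count reported or, for shares, within the range of the limits. The log2 changes of single loci in KOZ1 T2 were checked under alternatives for a part of the 100 loci only. Of these checks 72 stayed the same, 0 turned direction, 5 lost a call and 3 gained one. Over all 100 loci, 78 were below the control with FPKM scaled to the same sum and 91 with a common median, against 86 as deposited. No paired analysis was possible because the table holds pooled groups and no values of single libraries, and for the same reason leaving out single libraries was not run. Where the lower limit of a value is 0, the distance to its upper limit is at least as large as the value. The log-scale test is approximate there.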
